A study of Drosophila melanogaster with 6 samples.

Results

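A set of 10 genes of the machinery that cleaves pre-mRNA and adds the poly(A) tail was examined in RNA immunoprecipitation sequencing (RIP-seq) of the protein Isha. They are Cpsf160, Wdr33, Clp, Cpsf73, Cpsf100, su(f), CstF64, CstF50, Pcf11 and hrg. The genes were taken by name and found among the 17612 genes of the deposited count table by their dm6 coordinates, and all 10 were found. All 10 also passed the filter on low counts, which 11764 genes passed. In the Isha RIP group, RNA was recovered on beads bearing rabbit antiserum to Isha (labelled Isha-Rb94), from 12 mg of nuclear extract that had first been cleared over preimmune serum. In the input group, RNA came from the nuclear extract with no antibody. Each group had 3 libraries, and both groups came from wild-type Oregon R Drosophila melanogaster embryos collected over 0 to 24 h. The extract therefore pooled all embryonic stages and cell types. A control precipitation was not analysed here, so binding to Isha and binding to beads or serum cannot be told apart.

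Most mRNAs end where a multi-protein machine cuts the nascent transcript downstream of a poly(A) signal and a polymerase then adds adenosines. The cleavage and polyadenylation specificity factor (CPSF) reads the signal with one group of subunits and cuts with another. The cleavage stimulation factor (CstF) binds the downstream U- or GU-rich element, and cleavage factor II links cleavage to termination by RNA polymerase II. In Drosophila, mutations in su(f), suppressor of forked, alter phenotypes caused by insertions of the gypsy retrotransposon, whose insulator is bound by the protein su(Hw).

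The question put to the data was which transcripts were recovered with Isha relative to input, and the study's stated interest was su(Hw). The libraries held 8386414 to 14342543 counts in Isha RIP and 29344529 to 31680173 counts in input. The smallest count of any of the 10 genes was 45 in a RIP library and 362 in an input library, so none was near 0. Levels are given in CPM, counts scaled to 1e6 per library after a TMM factor, a correction for library composition. A level in extract pooled from whole embryos does not separate the share of cells that express a gene from its RNA per cell. With this scaling the typical gene is held near no change, so enriched and depleted mean above or below the typical transcript. Whether libraries within a group trace to separate embryo collections is not stated in the labels, so each p-value reflects only how far these libraries differ, which may be technical. As a check of the labels, 5 early zygotic patterning genes (eve, ftz, Kr, hb and en) summed to 240.2 to 275 CPM in RIP and 241 to 259 CPM in input. Of these, ftz (log2 fold change 0.85) was enriched, Kr (-0.34) and en (-0.25) were depleted, and eve and hb did not pass. The 5 late embryonic markers summed to 23266 to 23608 CPM in RIP and 17505 to 17849 CPM in input, a sum set by the fat body gene apolpp. Without apolpp the other 4 summed to 6201 to 6469 CPM in RIP and 7271 to 7463 CPM in input. The muscle genes Mhc (log2 fold change -0.49) and Act57B (-0.13) were depleted, and the neuronal genes elav (0.79) and nSyb (1.21) and apolpp (0.72) were enriched. The part of these shifts in the results that follow was not tested. The 5 maternal markers summed to 175 to 183 CPM in RIP and 177 to 189 CPM in input. Most of this sum was gcl, with means of 159 CPM in RIP and 149 CPM in input. Of the 5, nanos was depleted (log2 fold change -1.38, 7.45 CPM in RIP and 19.8 CPM in input), and the other 4 did not pass. The 8 markers of adult tissues summed to only 1.06 to 5.47 CPM in RIP and 4.04 to 6.70 CPM in input, and Cp36, Acp26Aa and Acp36DE were at 0 counts in all libraries.

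The 10 transcripts did not behave as a unit. The poly(A) polymerase gene hrg and the termination factor gene Pcf11 were enriched in Isha RIP. The CPSF genes Wdr33, Clp and Cpsf73 and the CstF gene CstF64 were depleted. Cpsf160, Cpsf100, CstF50 and su(f) did not pass the test. Thus 2 of the 10 were enriched, against 27.0% of all tested genes, and 4 of the 10 were depleted, against 30.4% of all tested genes (edgeR quasi-likelihood test, adjusted p under 0.05). Both shares lie near the background. The libraries of the groups did not overlap for the same 6 genes, with RIP above input for 2 (30.0% of all tested genes) and below it for 4 (34.0% of all tested genes). The median log2 fold change was -0.30 over the 10 genes and -0.05 over all tested genes. Single values spanned -1.20 for Clp to 0.78 for hrg, a 3.94-fold spread, while the middle 90% of all tested genes lay between -1.66 and 1.44 (percentiles 5 and 95).

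hrg (hiiragi), which encodes the canonical nuclear poly(A) polymerase, was the most enriched of the 10. It was measured at 208, 224 and 228 CPM in the RIP libraries and at 127, 132 and 126 CPM in the input libraries. Every RIP library was above every input library by a wide margin, and the means were 220.3 CPM ± 10.6 in RIP and 128 CPM ± 3.12 in input (SD, n = 3 each). RIP over input came to 0.78 ± 0.062 on the log2 scale (SE; edgeR adjusted p = 2.24e-10), a 1.72-fold enrichment. It ranked 1952 of the 11764 tested genes from the highest down. For comparison, su(Hw) had a log2 fold change of 0.53 in the same fit and the transcript of Isha itself 0.36. hrg (FBgn0015949) lies on chromosome 2R of dm6 from 19663919 to 19669832 on the minus strand, with 4587 bases of exon in 10 blocks, and shares no exon sequence with another gene.

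Pcf11, the cleavage factor II scaffold that binds the C-terminal domain of RNA polymerase II and acts in termination, had the most counts of the 10, though not the highest level per exon length in RIP. Its RIP libraries stood at 349, 359 and 358 CPM and its input libraries at 289, 292 and 280.5 CPM. The groups did not overlap, but the gap was small, a 1.24-fold enrichment. RIP over input came to 0.31 ± 0.049 on the log2 scale (SE; edgeR adjusted p = 1.02e-05). The call was lost under a correction for exon length. An offset was used that removes how far each library's smooth trend of count on exon length departs from the mean trend of the libraries. With this offset the log2 fold change of Pcf11 was -0.013 with an adjusted p of 0.843 (edgeR). That of hrg was 0.58 with an adjusted p of 4.04e-08 (edgeR). Pcf11 (FBgn0264962) is also on 2R (14860936 to 14871071, minus strand) and has the longest exon sequence of the 10, at 7815 bases in 12 blocks.

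**Figure D1:**
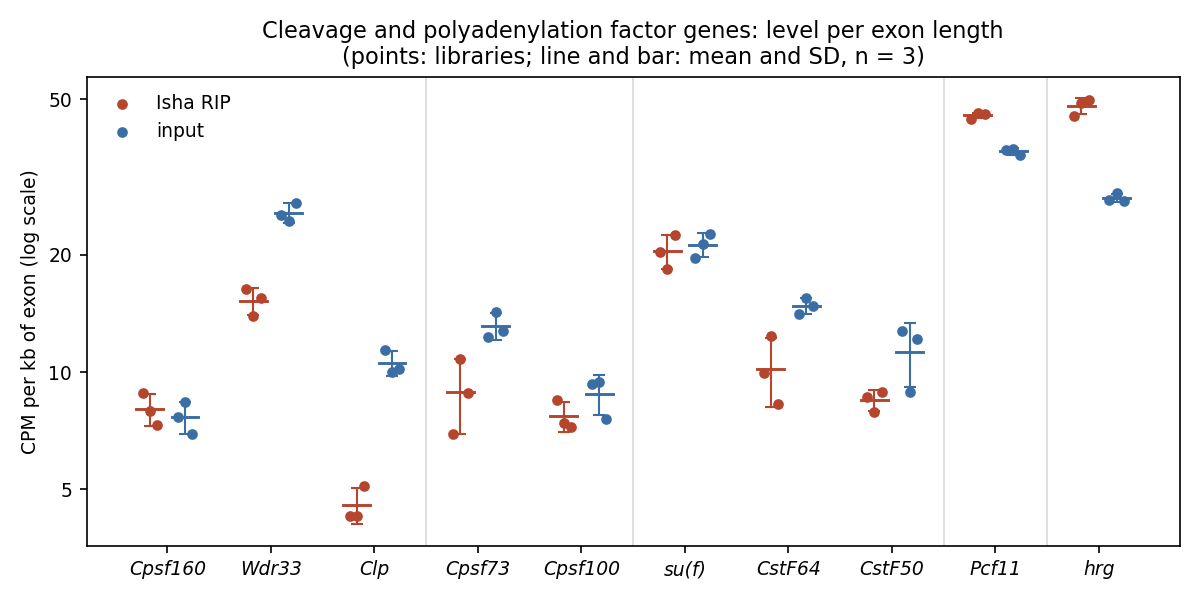
Level of each of the 10 genes in CPM per kb of exon (log axis), with Isha RIP left of input for each gene. Points are libraries, horizontal lines means and bars SD (n = 3), and grey lines divide the signal-reading CPSF subunits, the nuclease pair, CstF, Pcf11 and hrg. The RIP points all lie above those of input for Pcf11 and hrg and below them for Wdr33, Clp, Cpsf73 and CstF64. The gap is narrow for Cpsf73 (highest RIP 10.8, lowest input 12.3 CPM per kb) and CstF64 (12.4 and 14.1).

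Among the 10 genes, the CPSF subunits that recognise the poly(A) signal were Clp and Wdr33, both depleted, and Cpsf160, which was not called. Over all tested genes 30.4% were depleted. In mammals WDR33 and CPSF30 contact the signal and CPSF160 is the scaffold that holds them. Clp (clipper), the CPSF30 zinc-finger protein, stood at 5.33, 5.32 and 6.37 CPM in RIP and at 14.2, 12.4 and 12.7 CPM in input. Every input library thus lay far above every RIP library, and the raw counts behind these values were 47, 45 and 92 in RIP and 441, 362 and 400 in input. RIP over input came to -1.20 ± 0.23 on the log2 scale (SE; edgeR adjusted p = 0.000100), a 2.30-fold depletion and the strongest of the 10. Clp (FBgn0015621) is a gene of a single exon block of 1246 bases on chromosome 2L, from 819964 to 821209 on the plus strand.

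Wdr33 stood at 45.7, 38.9 and 43.3 CPM in RIP and at 70.7, 68.0 and 76.0 CPM in input. All RIP libraries were lower than all input libraries, and RIP over input came to -0.75 ± 0.10 on the log2 scale (SE; edgeR adjusted p = 1.06e-06). Wdr33 (FBgn0046222; chromosome 3R, 5660635 to 5665169, plus strand) has 2798 bases of exon, of which 1711 are also exon of the antisense RNA gene asRNA:CR46134 and 31 are exon of Xe7, both on the opposite strand. No source used here says whether counting used strand, and without strand the reads of these genes and of Wdr33 cannot be told apart where they overlap. The antisense gene had 2, 0 and 0 counts in RIP and 40, 0 and 9 in input. Xe7 went the other way from Wdr33, at 443 CPM ± 29.6 in RIP and 156 CPM ± 3.27 in input (SD, n = 3 each), with a log2 fold change of 1.50.

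Cpsf160 stood at 42.9, 38.6 and 35.5 CPM in RIP and at 37.1, 40.5 and 33.6 CPM in input, and the ranges of the groups overlapped, with RIP replicate 1 above every input library and input replicate 3 below every RIP library. Its log2 fold change of 0.07 did not pass (adjusted p = 0.660, edgeR), and the 95% interval of -0.19 to 0.32 bounds the difference. The sign was not stable: it was -0.15 with the exon length offset and -0.0097 without RIP replicate 1. Cpsf160 (FBgn0024698; 2R, 14497347 to 14503488, minus strand) has 4845 bases of exon and no overlapping gene.

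The nuclease of CPSF is Cpsf73, a metallo-beta-lactamase protein that makes the cut, and Cpsf100 is its inactive relative and partner. Cpsf73 stood at 15.2, 23.7 and 19.4 CPM in RIP and at 26.9, 31.2 and 27.9 CPM in input. The groups did not overlap, although the RIP libraries were uneven, with a coefficient of variation of 21.8% where counting alone would give 6.99%. RIP over input came to -0.56 ± 0.16 on the log2 scale (SE; edgeR adjusted p = 0.00476). Cpsf100 stood at 20.6, 18.0 and 17.5 CPM in RIP and at 22.7, 22.9 and 18.5 CPM in input. One input library lay among the RIP libraries, and the log2 fold change of -0.19 did not pass (adjusted p = 0.333, edgeR; 95% interval -0.53 to 0.15). Exons of Cpsf100 (FBgn0027873; 3R, 29034573 to 29037062, plus strand) share 5 bases with Slu7 on the opposite strand.

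CstF is built from a scaffold encoded by su(f), the homologue of mammalian CstF77, an RNA-binding subunit encoded by CstF64 and a WD-repeat subunit encoded by CstF50. su(f) stood at 61.3, 55.3 and 67.7 CPM in RIP and at 59.2, 64.3 and 68.2 CPM in input. These ranges overlapped for the most part, and the log2 fold change of -0.05 did not pass (adjusted p = 0.682, edgeR; 95% interval -0.26 to 0.15). It turned to 0.015 without RIP replicate 2. su(f) (FBgn0003559) lies on the X chromosome from 23096771 to 23101431 on the plus strand, with 3014 bases of exon in 10 blocks and no overlapping gene.

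CstF64 stood at 14.4, 17.9 and 12.0 CPM in RIP and at 20.4, 22.4 and 21.4 CPM in input. The groups did not overlap, and RIP over input came to -0.55 ± 0.18 on the log2 scale (SE; edgeR adjusted p = 0.0120). The call was lost without RIP replicate 3, the lowest library (log2 fold change -0.41, adjusted p = 0.0596, edgeR), and with the exon length offset (-0.35, adjusted p = 0.0959, edgeR). CstF50 stood at 12.1, 11.1 and 12.5 CPM in RIP and at 17.9, 12.5 and 17.1 CPM in input. Input replicate 2, at 12.5 CPM, lay level with the RIP libraries while the other 2 input libraries were well above them. The log2 fold change of -0.41 did not pass (adjusted p = 0.0876, edgeR; 95% interval -0.82 to 0.01). Without input replicate 2 it was -0.55 and passed (adjusted p = 0.0362, edgeR), and it also passed after all libraries were thinned to the lowest total (-0.54, adjusted p = 0.0297, edgeR). CstF50 (FBgn0039867) lies on 3R (31735503 to 31736963, minus strand), with no overlapping gene.

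CstF64 and Cpsf73, which work in different complexes of the machine, are neighbours on chromosome 3R. CstF64 (FBgn0027841) runs from 18659618 to 18661126 on the plus strand and Cpsf73 (FBgn0261065) from 18661121 to 18663552 on the minus strand. The 2 genes therefore meet tail to tail, with 6 bases of shared exon at their 3' ends, which is 0.415% of the exon length of CstF64. Their log2 fold changes, -0.55 and -0.56, were close to each other. In RIP both were highest in replicate 2, while CstF64 was lowest in replicate 3 and Cpsf73 in replicate 1.

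**Figure D2:**
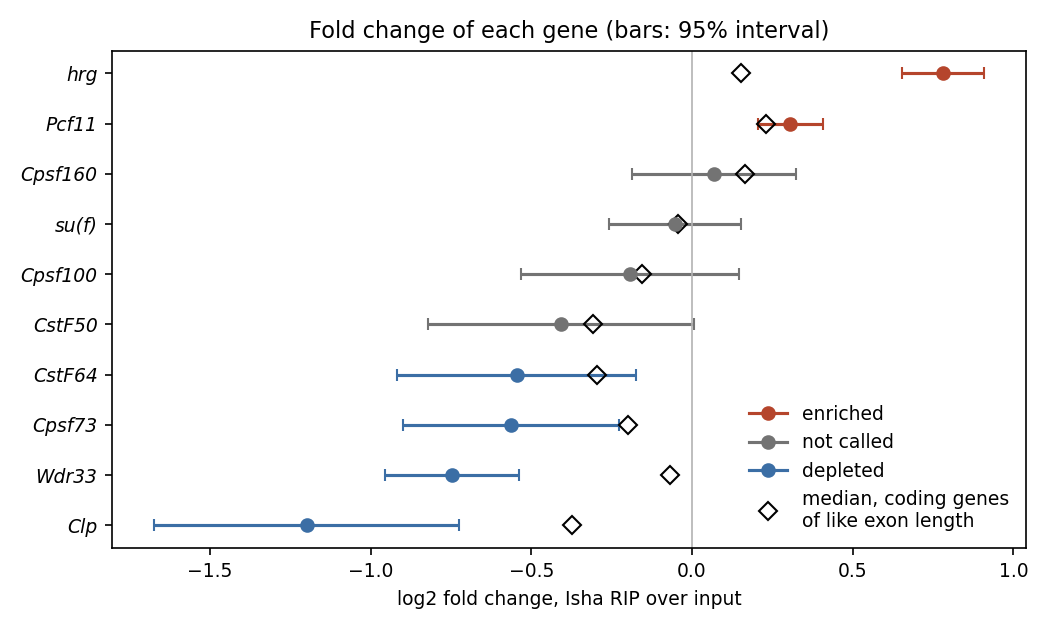
Log2 fold change of Isha RIP over input for each of the 10 genes, with its 95% interval. Open diamonds mark the median of protein-coding genes whose exon length lies within 20% of the gene's own, and hrg (0.78 against a diamond at 0.15), Wdr33 (-0.75 against -0.07) and Clp (-1.20 against -0.37) lie farthest from theirs.

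Exon length followed the fold change among the 10 genes. The 3 genes above 4000 bases of exon (Pcf11, Cpsf160 and hrg) were the only ones of the 10 with a positive log2 fold change, and the 3 genes of 1000 to 2000 bases (Clp, CstF50 and CstF64) ranged from -1.20 to -0.41. Across the 10 genes the Spearman correlation of exon length with log2 fold change was 0.79, as a description of points that share the same 6 libraries. Across all tested protein-coding genes it was 0.20. Those coding genes had a median of 0.21 above 4000 bases, -0.08 for 2000 to 4000 bases and -0.30 for 1000 to 2000 bases. Of coding genes above 4000 bases 49.3% were enriched, against 18.5% of those of 1000 to 2000 bases.

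Each gene was therefore set beside the other coding genes whose exon length was within 20% of its own. hrg was higher than 82.5% of its 1113 length neighbours, whose median was 0.15. Pcf11 was higher than 54.1% of its 477 neighbours, whose median was 0.23, a value inside the 95% interval of Pcf11 itself (0.21 to 0.41). At the other end, Wdr33 was higher than only 18.1% of 1800 neighbours and Clp than only 18.6% of 1663. For the other 6 genes the share was 32.2% (Cpsf73) to 49.6% (su(f)). With the exon length offset, hrg was still enriched, and Wdr33 (-0.72, adjusted p = 1.59e-06), Clp (-1.03, adjusted p = 0.000540) and Cpsf73 (-0.44, adjusted p = 0.0240, edgeR) were still depleted.

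**Figure D3:**
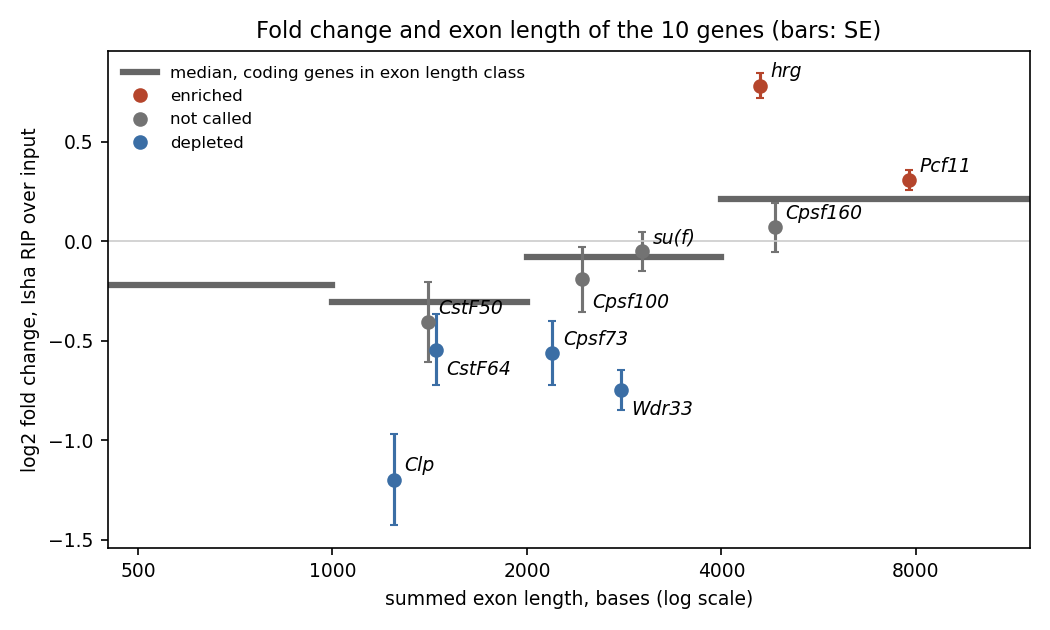
Log2 fold change (Isha RIP over input, bars SE) against summed exon length on a log axis for the 10 genes, coloured by call. Grey lines are medians of all tested protein-coding genes in 4 length classes, the outer classes running off the plot; su(f) and Cpsf100 lie near the line of their class, Wdr33 and Clp well below theirs and hrg well above.

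Per exon length, the 10 transcripts spanned a wide range in both groups, although their proteins meet in 1 machine. In input the order by CPM per kb was Pcf11 (36.8 ± 0.770), hrg (28.0 ± 0.680), Wdr33 (25.6 ± 1.46), su(f) (21.2 ± 1.50), CstF64 (14.8 ± 0.698), Cpsf73 (13.1 ± 1.04), CstF50 (11.3 ± 2.08), Clp (10.5 ± 0.770), Cpsf100 (8.78 ± 1.03) and Cpsf160 (7.65 ± 0.722; SD, n = 3). The first 4 were each separated from the next by all libraries. For Wdr33, 61.15% of the exon length used here is also exon of asRNA:CR46134. Its rank, share and ratios per exon length therefore carry the limit on strand given above. The neighbours from CstF64 down to Clp overlapped pair by pair, as did Cpsf100 and Cpsf160, while Clp lay above Cpsf100 in all libraries. In RIP, hrg (48.0 ± 2.31 CPM per kb) and Pcf11 (45.5 ± 0.723) led with overlapping libraries, followed by su(f) (20.4 ± 2.07) and Wdr33 (15.2 ± 1.22), each apart from the next. CstF64, Cpsf73, CstF50, Cpsf160 and Cpsf100 formed a run of overlapping neighbours from 10.2 ± 2.05 to 7.70 ± 0.690 CPM per kb, and Clp was last at 4.55 ± 0.485. The order was thus largely kept, with a Spearman correlation of 0.93 between the groups over the 10 genes, and the visible moves were hrg level with Pcf11, su(f) above Wdr33, and Clp below both Cpsf100 and Cpsf160.

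Together the 10 genes summed to 775 to 800.1 CPM in RIP and 682 to 698 CPM in input. This sum was carried by Pcf11 and hrg, since the other 8 genes summed to 209 to 218 CPM in RIP and 269 to 275 CPM in input. Of the level per exon length summed over the 10 genes, hrg took 27.1% ± 0.887 in RIP and 15.7% ± 0.345 in input, and Pcf11 took 25.7% ± 0.156 in RIP and 20.7% ± 0.422 in input (SD, n = 3). Wdr33 took 8.62% ± 0.785 in RIP and 14.4% ± 0.837 in input, and Clp 2.57% ± 0.246 in RIP and 5.93% ± 0.450 in input. Shares add up to a whole, so a larger share of hrg and Pcf11 lowers the others by construction.

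Ratios between 2 genes in the same library do not depend on how libraries are scaled. Their change from input to RIP restates the difference between the 2 fold changes given above, so it is no separate support for those calls. How often other gene pairs separate in this way was not tested. Clp over Cpsf160, per exon length, was 0.488, 0.542 and 0.700 in the RIP libraries and 1.49, 1.19 and 1.47 in the input libraries. Clp was thus the lower of this pair in every RIP library and the higher in every input library. Wdr33 over Cpsf160 was 1.85, 1.75 and 2.11 in RIP and 3.30, 2.90 and 3.92 in input, and hrg over Cpsf160 was 5.13, 6.14 and 6.78 in RIP and 3.61, 3.43 and 3.97 in input. Pcf11 over Cpsf73 was 6.41, 4.25 and 5.16 in RIP and 3.01, 2.62 and 2.82 in input. The groups did not overlap in these ratios, and each had an exact two-sided permutation p of 0.1, which is the smallest that 3 libraries against 3 can give (0.2 after Benjamini-Hochberg adjustment over the 8 ratios computed). At this number of libraries that test cannot pass 0.05.

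Within CstF and the nuclease pair the ratios overlapped between the groups. CstF64 over CstF50 averaged 1.19 in RIP and 1.33 in input (geometric means), su(f) over CstF50 averaged 2.39 in RIP and 1.90 in input, and su(f) over CstF64 averaged 2.01 in RIP and 1.43 in input. Cpsf73 over Cpsf100 was 0.818, 1.46 and 1.23 in RIP and 1.32, 1.52 and 1.68 in input. Their exact permutation p-values were 0.2 to 0.6 (0.267 to 0.6 adjusted), from a test that cannot pass 0.05 here. CstF64 passed the test across all genes and su(f) and CstF50 did not, but whether the CstF genes differ from each other is not settled by these ratios.

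**Figure D4:**
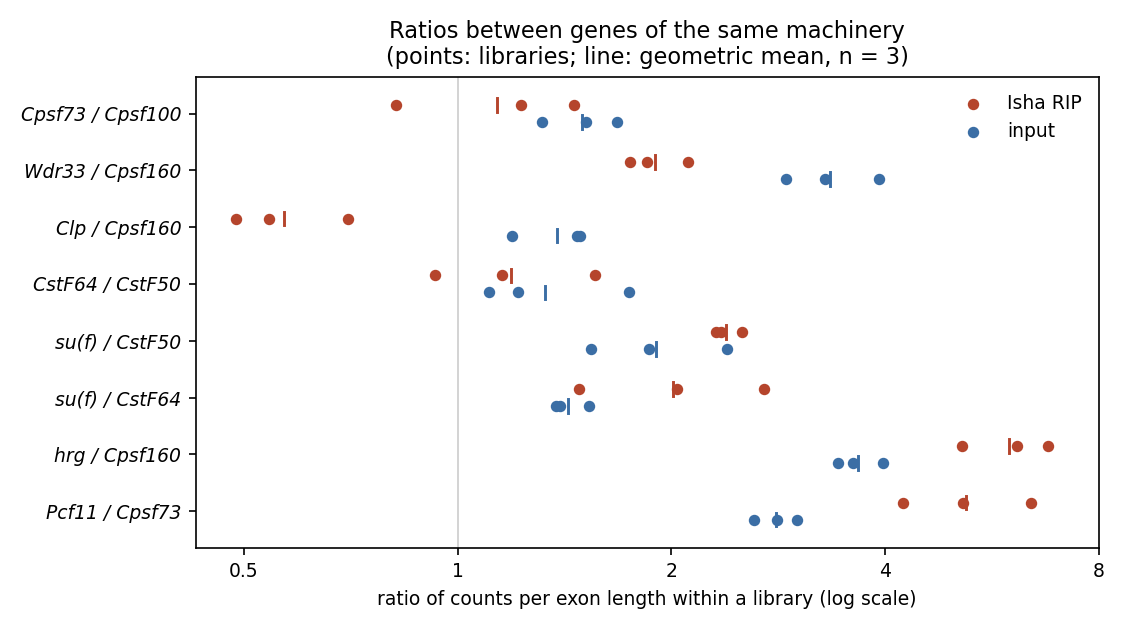
Ratio of counts per exon length between 2 genes in the same library (log axis), with Isha RIP above input for each of 8 gene pairs; points are libraries and short lines geometric means (n = 3). The groups are apart for Wdr33, Clp and hrg over Cpsf160 and for Pcf11 over Cpsf73, and overlap for the nuclease pair and for the CstF pairs.

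Other genes of 3' end processing were also mixed. Of 10 further factors, 2 were enriched and 3 depleted, near the 27.0% enriched and 30.4% depleted of all tested genes. The other 5 did not pass, and the median log2 fold change was -0.13. Pabp2, the nuclear poly(A)-binding protein that stimulates the polymerase, stood at 202 CPM ± 19.1 in RIP and 110.0 CPM ± 11.9 in input (SD, n = 3 each, as for the genes that follow), a log2 fold change of 0.88 near that of hrg. snama, the fly RBBP6 homologue, stood at 89.2 CPM ± 1.77 in RIP and 60.4 CPM ± 2.65 in input. Cpsf6, the larger subunit of cleavage factor I, was depleted at 76.0 CPM ± 7.29 in RIP and 169 CPM ± 9.09 in input, while its partner Cpsf5, named here after its value was seen, did not pass (log2 fold change -0.10). cbc, the homologue of the cleavage factor II subunit CLP1 and thus the partner of Pcf11, stood at 4.53 CPM ± 0.496 in RIP and 12.1 CPM ± 2.34 in input, a log2 fold change of -1.42. Pcf11 and cbc were therefore called in opposite directions, although the call of Pcf11 was lost with the exon length offset. Nab2, a zinc-finger poly(A)-binding protein, was depleted with a log2 fold change of -0.38. Exons of Pabp2, Cpsf6 and Cpsf5 overlap other genes.

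Integrator, which cuts snRNA precursors and attenuates mRNA genes with a nuclease pair related to that of CPSF, had 2 enriched and 7 depleted genes of 14, with a median of -0.40. The shares over all tested genes were 27.0% enriched and 30.4% depleted. IntS3 (log2 fold change 0.98) and IntS6 (0.39) were enriched, and IntS4 (-1.65) and IntS2 (-1.40) had the smallest adjusted p of those depleted (edgeR). The nuclease IntS11 (-0.23) and its partner IntS9 (-0.13), the relatives of Cpsf73 and Cpsf100 and named here after their values were seen, did not pass. Among 11 genes of deadenylation, which shortens the tail that hrg makes, 7 were enriched and 2 depleted, with a median of 0.32. The CCR4-NOT nuclease Pop2 stood at 245 CPM ± 23.7 in RIP and 78.3 CPM ± 1.66 in input and its partner Not3 at 217 CPM ± 13.7 in RIP and 103 CPM ± 3.04 in input, while Not10 (-1.14) and smg (-0.32) were depleted.

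The RNA exosome, which degrades nuclear RNA from the 3' end, had 2 enriched and 7 depleted genes of 11, with a median of -0.65. Its catalytic cofactor Rrp6 (log2 fold change 0.74) and the ring subunit Rrp45 (0.37) were enriched, and the cap subunit Rrp4 (-1.69) and the helicase Mtr4 (-1.12) had the smallest adjusted p of those depleted. Of 5 genes for the 3' ends of histone mRNAs, FLASH (1.01) and mute (0.20) were enriched and none was depleted; the median was -0.17. Of 5 genes that extend or bind the tail, the cytoplasmic poly(A) polymerase gene Gld2 (0.36) was enriched and Nab2, already named, was depleted, with a median of 0.04. Exons of Not3, Rrp6, Rrp45 and FLASH overlap other genes. Over all tested genes 27.0% were enriched and 30.4% depleted, with a median of -0.05, and whether these lists differ from the 10 genes was not tested. The lists also differ in exon length, which followed the fold change. Exosome genes had 819 (Rrp46) to 3588 bases of exon (Dis3) and deadenylation genes 1082 (Not11) to 10916 (Not1). The part of length in the list medians was not tested.

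**Figure D5:**
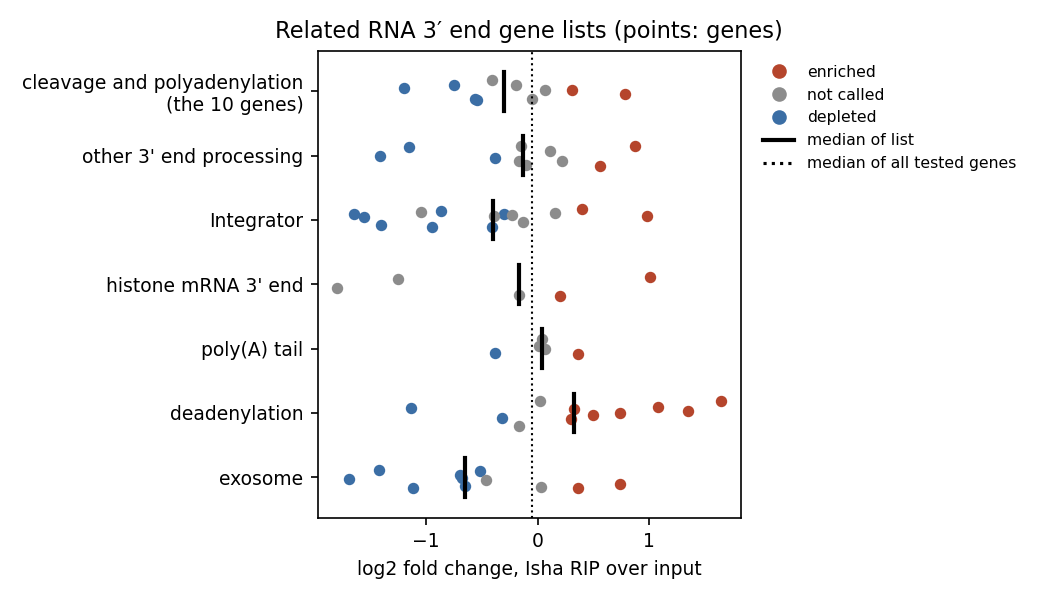
Log2 fold change (Isha RIP over input) of every tested gene in 7 lists of RNA 3' end genes, coloured by call, with the list median as a black bar and the median of all tested genes (-0.05) as a dotted line. The list medians run from -0.65 for the exosome to 0.32 for deadenylation, with the 10 cleavage and polyadenylation genes at -0.30. The lists were not matched for exon length.

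The genes whose pattern over the 6 libraries lay closest to hrg and to Clp were found by the root mean square difference of centred log2 CPM among 7714 genes of at least 10 CPM. Closest to hrg were phol (0.0284), which encodes a Polycomb-recruiting DNA-binding protein, the Hsp90 cochaperone gene p23 (0.0325) and CG5756 (0.0328), with log2 fold changes of 0.72 to 0.78. Closest to Clp were fng (0.0282), which encodes a glycosyltransferase that modifies Notch, CG7970 (0.0462) and the cuticle protein gene Cpr47Eg (0.0501), with log2 fold changes of -1.16 to -1.11. Exons of fng and CG7970 overlap other genes. The distance rests in large part on the difference between RIP and input, so close fold changes are built into the choice of these genes.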

How the data were processed

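Per the labels' protocols, RNA from nuclear extract or from the beads was treated with DNase and chemically fragmented, and 100 ng went into each library, read as 50 bp single ends. The authors deposited 1 table of unnormalized read counts, and its other column used here is summed exon length in bases. Per the submitters' processing notes, the build was dm6 and the tools were featureCounts (Subread 2.0.0), HISAT2 2.2.1, DESeq2 1.32.0, cutadapt 2.9, R 4.1.0 and Picard 2.22.2. No source used here gives the strand setting, duplicate handling or annotation version.

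Symbols came from RefSeq genes of the same build, matched on coordinates for 17158 of 17612 genes. Counts were filtered with filterByExpr (minimum count 10), scaled by TMM and tested over all 11764 genes with edgeR 4.0.16 (quasi-likelihood test, R 4.3.3, two-sided, Benjamini-Hochberg, calls under 0.05). Each standard error is the size of the fold change (log2) divided by the root of its F statistic, and 95% intervals use the t distribution. Ratios between genes used counts plus 0.5. Alternatives included DESeq2 1.42.0 and limma 3.58.1, and the workflow was tested on simulated data. The 10 genes, the comparison lists and the naming rule were chosen with earlier results of these data known. The rule took the 10 genes, su(Hw), Isha, called genes of the first list, and up to 2 called genes a direction of smallest adjusted p in other lists, plus the 3 genes of closest pattern to hrg and to Clp. Cpsf5, IntS9, IntS11, the marker genes and genes that overlap the 10 were named outside it. No replicate looked like a repeat of another: chi-square per degree of freedom over genes was 5.76 to 14.0.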

Additional observations from a re-analysis of the deposited data

How the results depend on the processing

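The counts of 2 enriched and 4 depleted genes were compared over 17 alternative fits. The calls of hrg (log2 fold change 0.58 to 0.84), Wdr33 (-0.80 to -0.69), Clp (-1.31 to -1.03) and Cpsf73 (-0.72 to -0.43) kept direction and threshold in every fit that held the gene. With the exon length offset 1 gene was enriched and 3 were depleted, against 2959 enriched and 3695 depleted of all 11764 tested genes. In that fit Pcf11 turned to -0.013, Cpsf160 to -0.15 and the median was -0.18. Leaving out genes with overlapping exons removed Wdr33, Cpsf73, Cpsf100 and CstF64 by construction. Of the 6 genes left, 2 were enriched and 1 depleted, with a median of -0.011. Over the 7670 genes tested in that fit, 2053 were enriched and 2343 depleted, with a median of -0.052. Leaving out 1 library at a time gave medians of -0.35 to -0.23, Cpsf160 at -0.0097 to 0.14, su(f) at -0.14 to 0.015 and a log2 ratio difference of CstF64 over CstF50 of -0.36 to 0.035. Leaving out a library made CstF64 lose its call (RIP replicate 3) and CstF50 gain one (input replicate 2). Deviations from the group means of same-numbered libraries correlated at -0.0092, -0.028 and -0.036, and no library correlated best with its own number. Correlations over all pairs of a RIP and an input library were only -0.036 to 0.032. Values so near 0 give no sign of pairing but cannot show whether same-numbered libraries share an extract. With the replicate block 2 genes were enriched and 4 depleted, with a median of -0.29, against 3065 enriched and 3520 depleted of all 11764 tested genes. Depth limits Clp most, with 45 to 92 counts in RIP.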
